A study of Ovis aries with 16 samples.

Results

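IGF1R, INSR and FOXO3 are 3 genes of the insulin and IGF pathway, and their mRNA was followed in the testes of 16 Merino male sheep. IGF1R is the receptor for insulin-like growth factors, INSR is the insulin receptor and FOXO3 is a transcription factor at the far end of the same pathway. The genes were chosen by name, and each was found by its Ensembl identifier (IGF1R ENSOARG00000010005, INSR ENSOARG00000000285, FOXO3 ENSOARG00000010741) among 25197 genes listed in every library. All 3 passed the filter on low values, which left 11148 genes to be tested. Of these sheep, 8 were on the high diet, designed for a gain of 10% in body mass over 65 days, and 8 were on the low diet, designed for an equal loss. The groups differed in diet alone by their labels, and each sheep gave 1 library of whole testis RNA.

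Both receptors are tyrosine kinases that pass their signal through adaptor proteins and PI3-kinase to the kinase AKT. AKT phosphorylates FOXO factors and keeps them out of the nucleus, so that FOXO target genes for cell cycle arrest, stress resistance and apoptosis are less active when insulin or IGF is plentiful. In the testis of the mouse, both receptors are known for their part in setting the number of Sertoli cells, which nurse the germ cells. An mRNA level says nothing of the phosphorylation or the place of a protein in the cell.

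The library totals were between 9552149 and 18230076 reads in well-fed sheep and between 7646547 and 14690953 reads in underfed sheep. Expression was given as CPM, the reads on a gene scaled to a fixed total over all genes, and 3 reads were worth between 0.165 and 0.392 CPM. The members were read by between 78 and 1627 reads per library, for which counting error alone came to at most 11.3% of a value. Sheep of the same diet differed by far more, with coefficients of variation between 33.5% and 66.3%. The 2 libraries with the lowest TMM factors (a scale that allows for differences in RNA composition) were those of high diet replicates 5 and 8.

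Underfed sheep had more mRNA of all 3 genes than well-fed sheep. IGF1R and INSR were each more than 3 times higher by the ratio of mean CPM, at 3.35 and 3.41, and FOXO3 was higher by a ratio of 2.29. The sheep with the highest and lowest values within a diet were largely the same for all 3 genes.

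IGF1R was between 5.65 and 37.9 CPM in well-fed sheep, with a median of 15.4, and between 24.8 and 119 CPM in underfed sheep, with a median of 50.5. In 7 of 8 underfed sheep IGF1R was above every well-fed sheep, and low diet replicate 1 was the exception. The mean was 19.1 ± 12.6 CPM (SD, n = 8) with the high diet and 63.8 ± 34.2 CPM with the low diet. On the scale of log2(CPM divided by TMM factor + 1), the low diet was higher by 1.63 (SE 0.36), with an adjusted p of 0.020 by limma with Benjamini-Hochberg adjustment over all genes tested.

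For INSR the spread within each diet was the smallest of the 3 genes, as a coefficient of variation. It was between 4.33 and 15.5 CPM in well-fed sheep, with a median of 7.98, and between 14.0 and 46.6 CPM in underfed sheep, with a median of 32.0. Again 7 of 8 underfed sheep were above every well-fed sheep, and replicate 1 fell below only the highest of them, high diet replicate 4. The mean was 9.38 ± 4.08 CPM (SD, n = 8) with the high diet and 32.0 ± 10.7 CPM with the low diet. The log2 difference was 1.53 (SE 0.24), with an adjusted p of 0.014 by limma, and 2 genes of 11148 had a smaller p.

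FOXO3 overlapped more. It was between 9.65 and 52.9 CPM in well-fed sheep, with a median of 20.7, and between 32.5 and 109.6 CPM in underfed sheep, with a median of 56.1. Here 4 of 8 underfed sheep were above every well-fed sheep, and high diet replicates 3, 4 and 7 were within the range of the low diet. The mean was 27.7 ± 16.02 CPM (SD, n = 8) with the high diet and 63.5 ± 27.6 CPM with the low diet. The log2 difference was 1.09 (SE 0.30), with an adjusted p of 0.040 by limma.

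**Figure D1:**
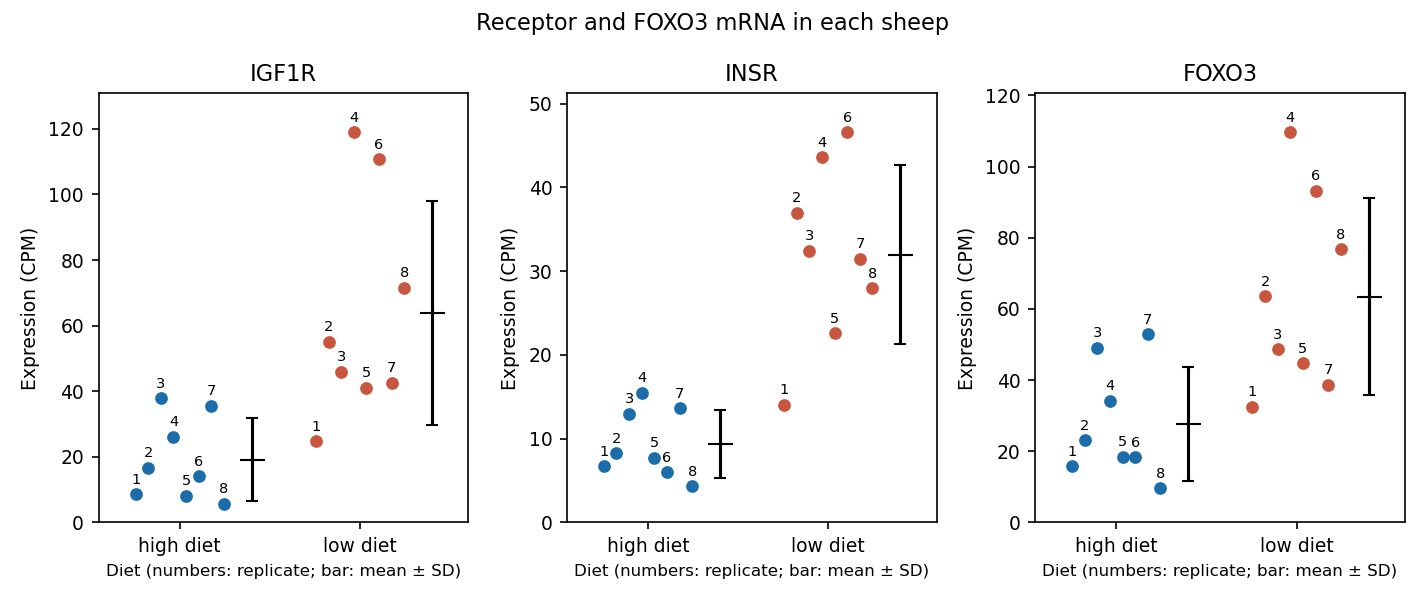
Expression of IGF1R, INSR and FOXO3 in CPM (vertical axis) in each of 8 high diet and 8 low diet sheep (points, numbered by replicate), with the mean and SD beside each group. Low diet replicates 4 and 6 are the highest for every gene and high diet replicate 8 is the lowest.

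A gene was called where the adjusted p was under 0.1 and the ratio of mean CPM was above 1.5, and by this rule 16.2% of all genes tested were called, 10.8% as higher and 5.42% as lower in underfed sheep. All 3 members were called as higher. They also stand in the study's tables of genes that differed between these same sheep. Their calls, their places among all genes and the p-values of their diet differences are therefore not independent evidence. Only identifiers and symbols were taken from those tables, and the directions given here are those of the deposited CPM. By the adjusted p alone, 21.5% of genes passed (10.9% higher and 10.6% lower in underfed sheep). The CPM of the diets did not overlap at all in 0.762% of genes with the low diet above and in 0.0359% with the low diet below, and no member was among them. A larger log2 difference than that of IGF1R was found in 24 genes, than that of INSR in 45 genes and than that of FOXO3 in 360 genes. Exact permutation tests over the sheep, two-sided, gave p = 0.0014 for IGF1R, 0.00031 for INSR and 0.0065 for FOXO3. With testis weight as a covariate none of the 3 was called (limma, adjusted p = 0.85 for each), at log2 differences of 1.34, 1.21 and 0.89. In that fit 0 of all genes tested were called. The unadjusted limma p was 0.017 for IGF1R, 0.0018 for INSR and 0.051 for FOXO3. Without high diet replicates 5 and 8 the FOXO3 difference was 0.90 with an adjusted p of 0.17, and IGF1R and INSR remained under 0.1, at 0.093 and 0.053.

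**Figure D2:**
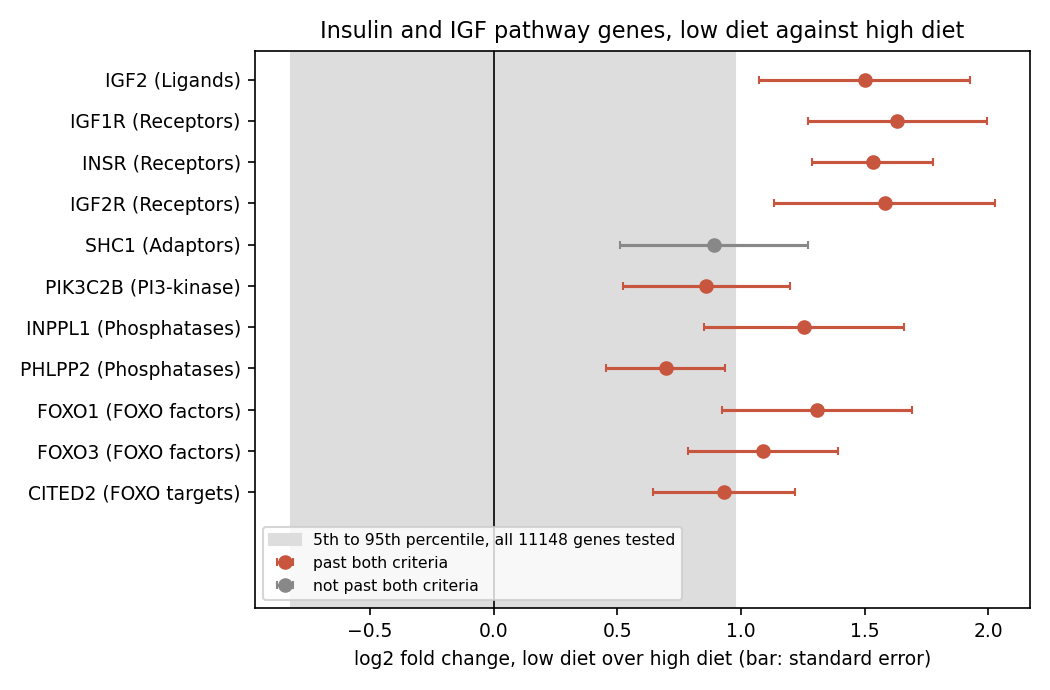
Log2 difference between diets (horizontal axis, low diet over high diet, bars for the standard error) of 11 pathway genes with an identifier, with the range from the 5th to the 95th percentile of all 11148 genes tested in grey. The receptors lie farthest to the right, and SHC1 is the gene shown that was not called.

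Other genes of the pathway were taken from a list of 88 genes, of which 12 had an identifier paired with a symbol, the members included. Symbols came from the study's tables of genes that differed between these same sheep, so the counts that follow are not independent evidence of a direction. Of the 12 genes, 10 were called as higher and 0 as lower, and by the adjusted p alone 10 passed as higher and 1 as lower. The median log2 difference was 1.17, against 0.62 over all 1763 genes with a symbol and 0.01 over all genes tested. Without the 3 members, 7 of the 9 genes left were called as higher and 0 as lower, with a median of 0.93. Among the genes with a symbol, 877 were called as higher and 475 as lower. No binding protein, AKT or mTOR complex gene could be matched, and these were not analysed here. The count of 10 was 6 without high diet replicate 5, 6 without low diet replicate 4 and 5 without low diet replicate 6.

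Among the ligands, IGF2, a growth factor that binds both receptors, was 3.84 ± 3.1 CPM in well-fed and 14.5 ± 11.9 CPM in underfed sheep (SD, n = 8), a log2 difference of 1.5 with a limma adjusted p of 0.043. IGF2R, which binds IGF2 and carries it to lysosomes, was 42.1 ± 34.0 and 124 ± 78.3 CPM, a log2 difference of 1.58 with a limma adjusted p of 0.042. Sheep varied widely for both genes, and 5 of 8 underfed sheep for IGF2 and 3 of 8 for IGF2R were above every well-fed sheep. FOXO1, a relative of FOXO3 with the same place in the pathway, was 5.70 ± 4.85 and 15.3 ± 7.96 CPM, with a log2 difference of 1.31 and a limma adjusted p of 0.046. CITED2, a transcriptional coregulator that is a known FOXO target, was higher by 0.93 on the log2 scale (limma adjusted p = 0.051), with 7 of 8 underfed sheep above every well-fed sheep. The filter asked for more than 5 CPM in 8 or more libraries. The well-fed medians of IGF2, FOXO1 and CITED2 were 2.74, 3.78 and 2.50 CPM. These genes therefore entered the test mainly through underfed sheep, where they were high. Their differences are not independent evidence of a direction.

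Between receptor and FOXO, PIK3C2B, a class II PI3-kinase, differed by 0.86 on the log2 scale (limma adjusted p = 0.097). Its lowest value in underfed sheep was 5.27 CPM and its median in well-fed sheep was 4.03 CPM. It too passed the filter on low values mainly through the sheep in which it was high. INPPL1, which removes a phosphate from the PI3-kinase product, was higher by 1.25 (limma adjusted p = 0.057), and PHLPP2, which dephosphorylates AKT, was higher by 0.69 (limma adjusted p = 0.071). SHC1, an adaptor of both receptors, had a log2 difference of 0.89 and did not pass the test (limma adjusted p = 0.12).

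The balance among the members was compared within each library, where depth and scaling cancel. Gene length was not used, so the size of such a ratio does not say which mRNA was more abundant, and only its difference between diets is read. The ratio of FOXO3 to IGF1R was lower in underfed sheep, and so was that of FOXO3 to INSR, while the ratio of both receptors differed by less than the spread between sheep.

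FOXO3 to IGF1R was between 1.29 and 2.27 in well-fed sheep and between 0.842 and 1.31 in underfed sheep. In 7 of 8 underfed sheep the ratio was below that of every well-fed sheep. The ratio also varied within each diet. Well-fed replicates 1, 5 and 8, the lowest in IGF1R, had 1.86, 2.27 and 1.71. Underfed replicates 4 and 6, the highest in IGF1R, had 0.922 and 0.842, but replicate 7, among the lower ones, had 0.908. Whether the ratio follows the level of IGF1R was not tested. The means were 1.58 ± 0.348 and 1.04 ± 0.152 (SD, n = 8), a log2 difference of -0.58, with an exact permutation p of 0.00062 and 0.0019 after Benjamini-Hochberg adjustment over the 3 ratios. FOXO3 to INSR was 2.84 ± 0.681 with the high diet and 2.001 ± 0.514 with the low diet, a log2 difference of -0.51 with an exact permutation p of 0.013 (adjusted 0.019), and 5 of 8 underfed sheep were below every well-fed sheep. INSR to IGF1R was 0.593 ± 0.220 and 0.551 ± 0.147, a log2 difference of -0.06 with an exact permutation p of 0.79. This last difference changed sign when single sheep were left out, over a range from -0.16 to 0.05.

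**Figure D3:**
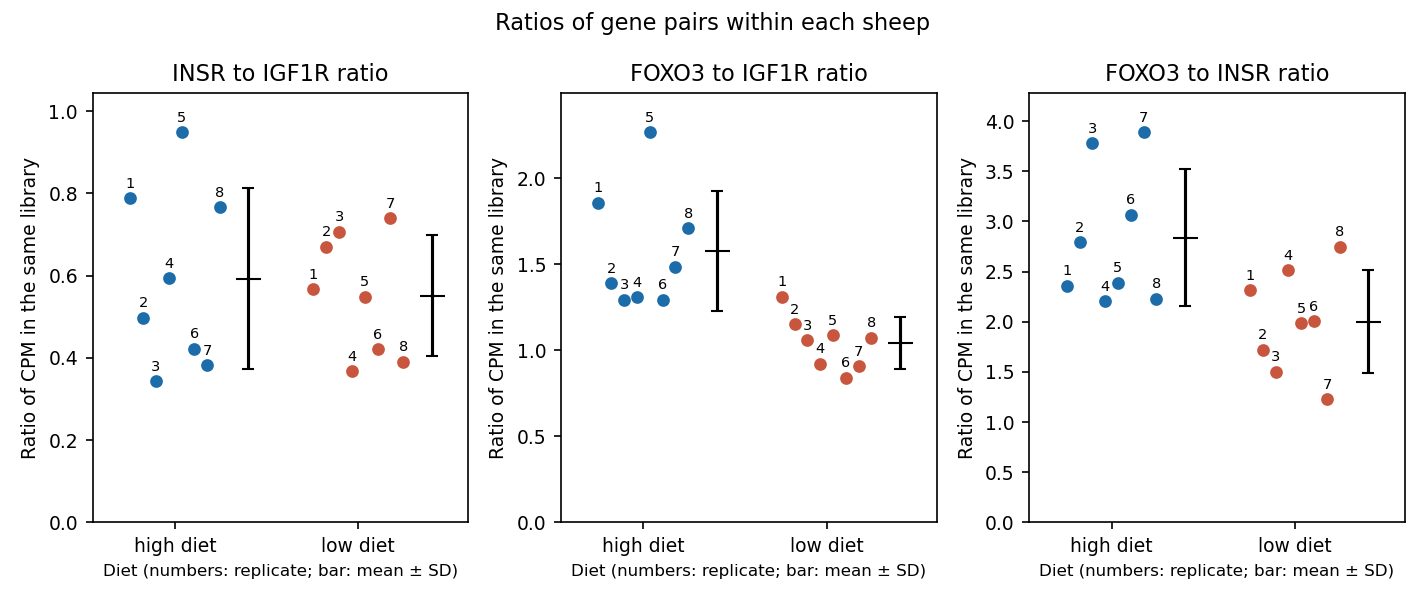
Ratios between the CPM of the members within each library (vertical axes, no unit) in high diet and low diet sheep (points), with mean and SD. FOXO3 to IGF1R lies between 0.842 and 1.31 in underfed sheep and between 1.29 and 2.27 in well-fed sheep.

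Within a diet the 3 genes rose and fell together from sheep to sheep. Among well-fed sheep, replicates 3, 4 and 7 had the 3 highest values of every member and replicate 8 the lowest. Among underfed sheep, replicates 4 and 6 had the highest values of every member and replicate 1 the lowest. The members were therefore compared with each other over all 16 sheep, within each diet, and with diet means removed.

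IGF1R and FOXO3 were the closest pair. Pearson's r of their log2 values was 0.98 over 16 sheep (Spearman's rho 0.94), 0.96 among well-fed sheep, 0.97 among underfed sheep and 0.97 with diet means removed. For IGF1R and INSR the values were 0.93 (rho 0.94), 0.85, 0.85 and 0.85, and for INSR and FOXO3 they were 0.89 (rho 0.85), 0.91, 0.77 and 0.84. Every one of these correlations had an adjusted permutation p under 0.05 over the 3 pairs, the largest being 0.019 for INSR and FOXO3 among underfed sheep (exact). With the 2 most extreme sheep on the first gene of each pair taken out, r was 0.97, 0.90 and 0.85 in the order above.

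**Figure D4:**
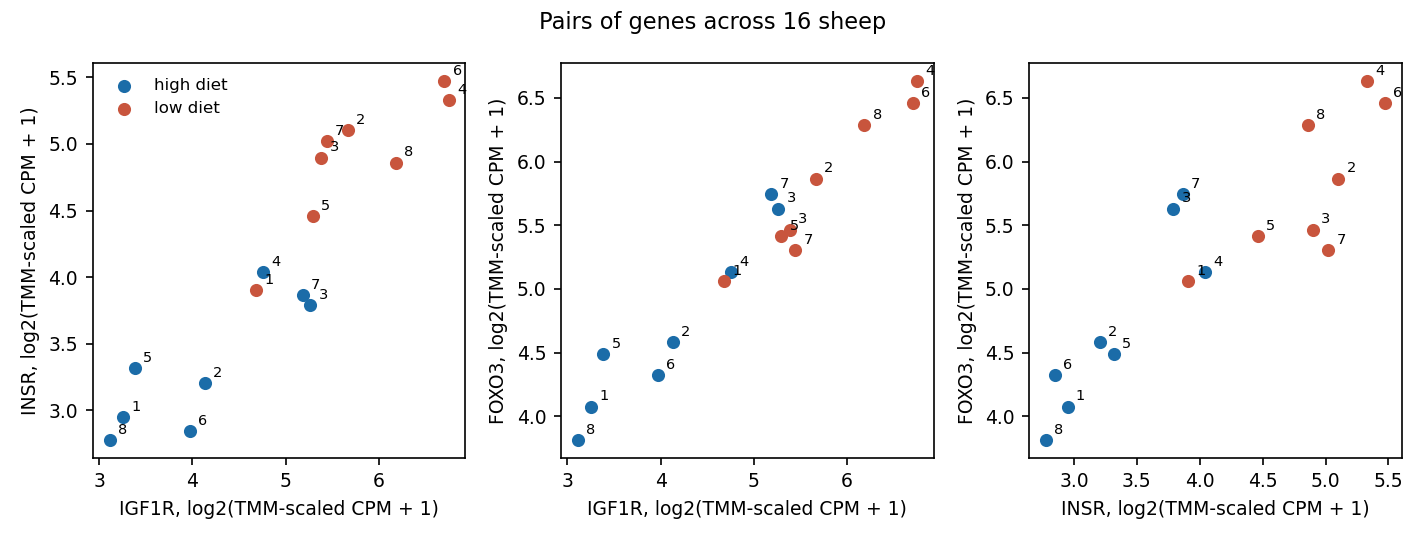
Log2 values of each pair of members in the 16 libraries (both axes log2(CPM divided by TMM factor + 1)), coloured by diet. Points of both diets lie along 1 band, which is narrowest for IGF1R and FOXO3.

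Each r was set against those of all other genes tested, in libraries whose first principal component held 59.6% of the variance. With diet means removed, 5.99% of all other genes tested had an r above 0.9 with IGF1R, 0.135% with INSR and 5.01% with FOXO3. Set against these, 7 genes (0.0628%) were at least as close to FOXO3 as IGF1R was, and 28 genes (0.251%) were at least as close to IGF1R as FOXO3 was. For INSR the shares differed with the gene they were counted from. As seen from INSR, 124 genes (1.11%) were at least as close as IGF1R and 157 genes (1.41%) at least as close as FOXO3. As seen from IGF1R, 1382 genes (12.4%) were at least as close as INSR, and as seen from FOXO3 1417 genes (12.7%) were. These shares describe genes measured in the same 16 libraries and carry no test.

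The genes closest to each member were sought among genes with a symbol, which came from the tables of genes that differed between these sheep. As 5.99% of genes had an r above 0.9 with IGF1R and 5.01% with FOXO3, different names at the top do not set these members apart. By r with diet means removed over 16 libraries, among 1762 genes with a symbol, IGF1R was closest to ADCY9, an adenylyl cyclase (r = 0.99), NOTCH2, a receptor of the Notch pathway (0.98), and TNS3, a focal adhesion protein (0.98). INSR was closest to AOX1, an aldehyde oxidase (0.94), DOCK5, an activator of Rac (0.93), and RAB5B, a GTPase of early endosomes (0.93). FOXO3 was closest to TNRC6A, a protein of microRNA silencing (0.98), FRMD4A, a scaffold protein (0.97), and VEZF1, a zinc finger factor (0.97). At the other end, r with IGF1R was lowest for C9orf40 (-0.95), for ATP1B3, a sodium pump subunit (-0.94), and for MND1, which acts in meiotic recombination (-0.94). For FOXO3 it was lowest for C9orf40 (-0.94), PCNA, the sliding clamp of DNA replication (-0.93), and POLB, a DNA repair polymerase (-0.93). For INSR it was lowest for SYPL1 (-0.92), RABL3 (-0.91) and KLHDC2 (-0.90).

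Whole testis holds several cell types, and in such samples fewer cells of a type and less RNA per cell cannot be told apart. Of 42 markers listed for 8 cell types, 13 could be matched, again through the tables of genes that differed between these sheep. The marker differences that follow, with their p-values, are therefore not independent evidence of a direction. The summed CPM of 5 of 7 Sertoli markers was between 112.5 and 163.6 in well-fed and between 197.9 and 532 in underfed sheep, with no overlap (exact permutation p = 0.00016). The sum of 3 of 5 spermatocyte markers went the other way, between 90.1 and 362 in well-fed and between 23.8 and 191 in underfed sheep (exact permutation p = 0.013). None of these 8 markers was at 0 in any library, and the lowest value was 0.768 CPM. The matched peritubular (2 of 4) and leukocyte (1 of 5) markers had log2 differences of 1.23 and 0.80, the Leydig (1 of 5) and spermatid (1 of 7) markers had -1.45 and -0.86, and no endothelial or spermatogonial marker was matched.

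The members moved with these markers to a degree that depended on how the markers were combined. With diet means removed, r with the Sertoli sum was 0.19 for IGF1R, 0.43 for INSR and 0.06 for FOXO3, and 0 of 6 relations with the Sertoli and spermatocyte sums passed an adjusted permutation p of 0.05 (0 also before adjustment). With the mean of scaled log2 values, which weights each marker alike, r with the Sertoli markers was 0.69, 0.78 and 0.57 and 6 of 6 relations passed. Single Sertoli markers differed, since GATA4 had an r of 0.91 with IGF1R and CLDN11, which made up the largest part of the sum, had -0.34. Taken per Sertoli marker sum in the same library, INSR was higher in underfed sheep by 0.65 on the log2 scale (exact permutation p = 0.025). On that basis IGF1R differed by 0.72 (exact permutation p = 0.11) and FOXO3 by 0.14 (exact permutation p = 0.71). Per spermatocyte marker sum the differences were 3.05, 2.99 and 2.47 for IGF1R, INSR and FOXO3 (exact permutation p = 0.0014, 0.00047 and 0.0025). Members and markers alike were matched through tables of genes that differed between these sheep. The p-values per marker sum are therefore not independent evidence of a difference. The part of cell makeup in the diet differences was not tested beyond these values.

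Finally, the members were set against testis traits that the study measured in the same sheep. Over all 16 sheep, sheep with more receptor mRNA had lighter testes and less seminiferous epithelium, but the diets also differed and no relation passed the test within a diet. Of 15 relations over both diets, 7 had an adjusted permutation p under 0.05, with 9 under 0.05 before adjustment, and with Spearman's rho 13 of 15 passed after adjustment. Pearson's r with the volume of seminiferous epithelium was -0.65 for IGF1R (rho -0.71), -0.74 for INSR (rho -0.75) and -0.58 for FOXO3 (rho -0.61), with adjusted permutation p of 0.025, 0.015 and 0.042. With testis weight r was -0.61 for IGF1R (rho -0.64, adjusted permutation p = 0.034) and -0.73 for INSR (rho -0.73, adjusted permutation p = 0.015). For FOXO3 it was -0.55 (rho -0.56, adjusted permutation p = 0.051). INSR also had r of -0.65 with tubule diameter (rho -0.65) and 0.57 with apoptotic germ cells per tubule (rho 0.66), with an adjusted permutation p of 0.025 for each.

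With the 2 sheep most distant from the trait's median taken out, r with epithelium volume was -0.55, -0.65 and -0.43 for IGF1R, INSR and FOXO3, the last with a permutation p of 0.13, so that by Pearson's r the FOXO3 relation did not pass without those sheep. By rho over all 16 sheep it had an adjusted permutation p of 0.028. With testis weight r was then -0.63 for IGF1R and -0.68 for INSR, and for INSR it was -0.58 with tubule diameter and 0.73 with apoptotic germ cells. With sperm number per testis, r over all 16 sheep was -0.49, -0.41 and -0.44 for IGF1R, INSR and FOXO3 (adjusted permutation p = 0.082, 0.13 and 0.11). With the 2 most distant sheep taken out it was -0.72, -0.74 and -0.67 (permutation p = 0.0040, 0.0035 and 0.0090, not adjusted). The count of 7 was 2 without high diet replicate 1 and 3 without high diet replicate 8.

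With diet means removed, 0 of 18 relations had an adjusted permutation p under 0.05, and 0 were under 0.05 before adjustment. Within the high diet 0 of 18 passed after adjustment and 1 before it, FOXO3 with sperm number per testis (r = -0.74, exact permutation p = 0.041, adjusted 0.32). Within the low diet 0 of 18 passed before or after adjustment. For apoptotic germ cells the sign of r itself differed between the diets, at -0.56, -0.52 and -0.61 among well-fed sheep and 0.09, 0.33 and 0.14 among underfed sheep for IGF1R, INSR and FOXO3, and the difference between diets was not tested. Change in scrotal circumference did not overlap between the diets and was compared within them only.

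**Figure D5:**
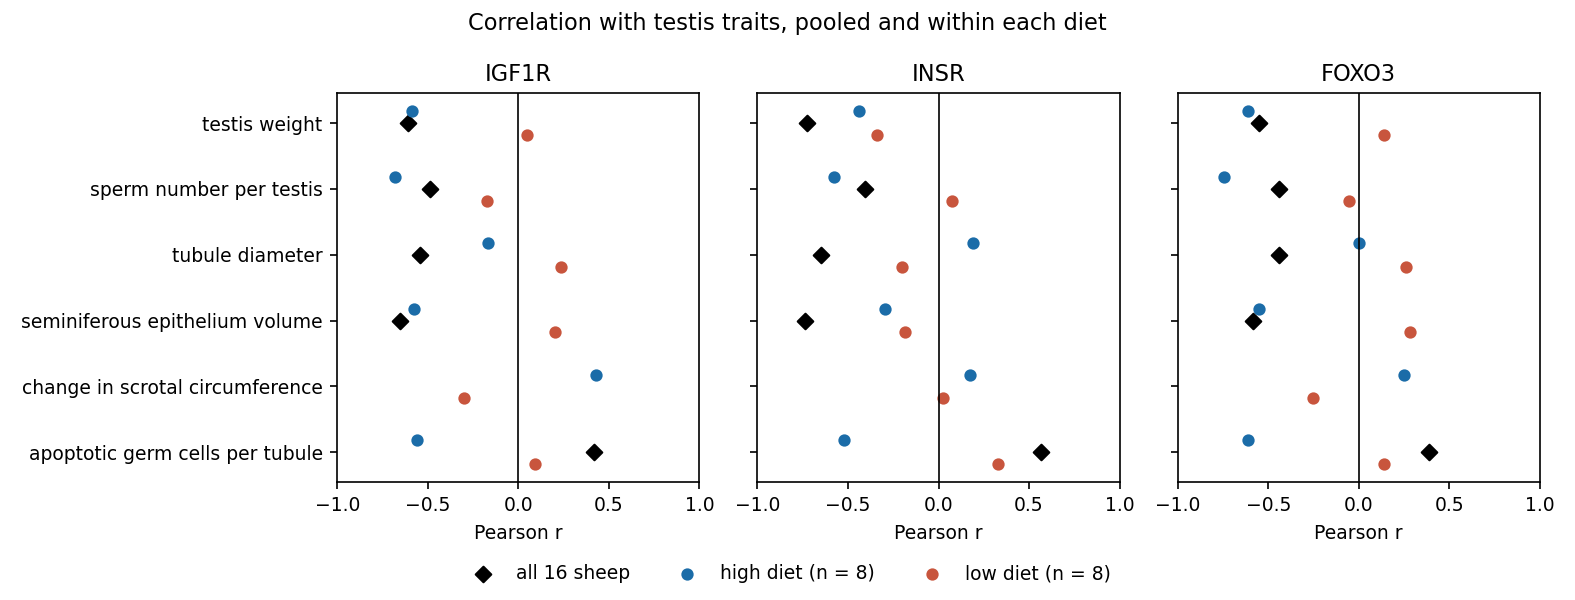
Pearson's r (horizontal axis) of each member's log2 value with 6 testis traits, over all 16 sheep (diamonds, left out for scrotal circumference) and within each diet (points, n = 8). Diamonds for testis weight and epithelium volume lie between -0.74 and -0.55, while points within the low diet lie nearer to 0. For the same traits, points within the high diet lie between -0.61 and -0.30.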

How the data were processed

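RNA of the testis of 16 sheep was sequenced, with 1 library per sheep, and p-values measure the spread between sheep. The authors aligned paired reads to Oar_v3.1 with TopHat2 (version 2.0.10), used htseq-count to assign reads to the Ensembl annotation and deposited CPM of every gene without a filter. The strand setting of the counting is not given in the sources used here, so reads of overlapping antisense genes may be included. CPM keeps no gene length, so levels were not compared between genes.

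Reads were recovered from the deposited CPM, and 100% of values in every library were whole to within 0.01 reads. The diets were compared with limma (version 3.58.1, trend on, R 4.3.3) on log2(CPM divided by TMM factor + 1) over genes that exceeded 5 CPM in 8 or more libraries. The pseudocount of 1 CPM understates the change of low genes. TMM factors were computed by edgeR (version 4.0.16) from the filtered genes. They were first computed from all genes, and the filtered genes were settled on after those values had been seen. Both versions are given in the closing section. A call needed an adjusted p under 0.1 and a ratio of mean CPM above 1.5. edgeR's tests and DESeq2 (version 1.42.0) on recovered reads were alternatives.

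Single values were compared with exact permutation tests, two-sided. Correlations used 100000 resamples, or every order within a diet (scipy 1.17.1). Symbols and traits came from the study's supplementary tables, which paired 1763 of 25197 identifiers with a symbol. Groups and replicate numbers came from the labels, and every direction is that of the deposited CPM under those labels. Same-numbered sheep did not deviate together on average (mean correlation -0.15), and the numbers were not taken to pair them. The genes named were the members, list genes with an adjusted p under 0.1, SHC1, which had an identifier and missed that threshold, and the 3 genes with the highest and lowest r with each member; GATA4 and CLDN11 were named after their values were seen. The values of 1 list gene, which is included in the counts, are not reported here. The members, the lists and the tests were chosen with earlier results of these data known.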

Additional observations from a re-analysis of the deposited data

How the results depend on the processing

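The log2 difference of each member remained higher in underfed sheep under every alternative. Over 12 alternatives of scaling, test, pseudocount, filter, block and samples, it ranged from 1.34 to 1.79 for IGF1R, from 1.23 to 1.69 for INSR and from 0.90 to 1.25 for FOXO3, with adjusted p between 0.00071 and 0.093, 4.7e-07 and 0.053, and 0.010 and 0.17. Leaving out each sheep gave 1.48 to 1.797, 1.45 to 1.66 and 0.96 to 1.24, with an adjusted p under 0.1 in 16 of 16 fits for each gene. With TMM factors from all genes, an alternative added after seeing the data, the differences were 1.59, 1.49 and 1.05 and 1765 genes were called. The other additions of this kind were the first principal component as a covariate, the libraries without high diet replicates 5 and 8, and the values per marker sum.

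With testis weight as a covariate, the differences were 1.34, 1.21 and 0.89 (adjusted p = 0.85 each), and 0 of 12 pathway genes and 0 of all genes were called (544 genes at an unadjusted limma p under 0.05). With the first principal component as a covariate, FOXO3 differed by 0.43 (adjusted p = 0.12), and 3 pathway genes and 566 genes in all were called. Without high diet replicates 5 and 8, FOXO3 differed by 0.90, and 2 pathway genes and 261 genes in all were called. Per Sertoli marker sum, IGF1R differed by 0.72 and FOXO3 by 0.14. The cause of these changes was not tested. Calls over all genes were 1808 (1204 higher, 604 lower). With library totals in place of TMM factors they were 1563 higher and 455 lower, and the median of all genes moved from 0.01 to 0.17. Leaving out each sheep gave 674 to 2684 calls over all genes, with 1018, 836, 930 and 865 without high diet replicates 1, 5, 6 and 8 and 843 and 674 without low diet replicates 4 and 6, and 5 to 11 pathway calls.

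The replicate block gave 1067 calls over all genes and an exact sign-flip p of 0.086 for FOXO3 to INSR (log2 difference -0.51). It changed no call of a member. Correlations of same-numbered sheep ranged from -0.63 to 0.70 and were over 0.1 in 2 of 8 pairs. Whether a shared number stands for more than a label was not tested. INSR to IGF1R was 0.039 as a difference of medians, and leaving out each sheep gave -0.16 to 0.046. FOXO3 to IGF1R then ranged from -0.63 to -0.50 and FOXO3 to INSR from -0.59 to -0.42. Of the trait correlations, 13 passed with Spearman's rho and 0 with diet means removed, and 2 to 10 when each sheep was left out. Of the marker correlations, 6 passed with the mean of scaled values. Symbols for few genes, and a lowest INSR count of 78 reads, limit what the list and single values can show.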

Other observations

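The first principal component of all genes tested, which held 59.6% of the variance, overlapped between the diets, from -103.6 to 42.1 in well-fed and from -29.7 to 74.1 in underfed sheep (exact permutation p = 0.046, two-sided). With diet means removed, r with this component over 16 libraries was 0.94 for IGF1R, 0.92 for FOXO3 and 0.77 for INSR. As the members are among the genes that make up the component, these values are a description. With the component as a covariate, an alternative chosen after seeing the data, INSR differed between the diets by 1.11 (limma adjusted p = 0.015), IGF1R by 0.80 (0.028) and FOXO3 by 0.43 (0.12).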
